A study of Mus musculus with 4 samples.

Results

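The genes described here are the nuclear genes of mitochondrial ribosomal proteins, taken as every row of the per-library tables whose symbol is Mrpl or Mrps followed by a number and at most 1 letter from a to c. The rule found 76 of 23312 genes, 47 of the large subunit (Mrpl) and 29 of the small subunit (Mrps), and it used no measured value. Messenger RNA had been sequenced from B220+CD43+ pro-B cells, early B-lineage cells sorted from the bone marrow of C57BL/6 mice. Both groups carried RERTCre, a Cre recombinase that tamoxifen switches on, and both received 1 mg tamoxifen on days 1, 2, 4 and 7 before analysis on day 10. They differed at Cnot3, which was flanked by loxP sites on both alleles (Cnot3 fl/fl RERTCre, 2 libraries, called floxed here) or wild type (Cnot3 +/+ RERTCre, 2 libraries, called control here). Cnot3 encodes a subunit of CCR4-NOT, the main deadenylase complex, which starts the decay of many mRNAs. The labels name no promoter for the Cre and no age or sex of the mice.

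Mitochondria have their own ribosomes, which translate the few proteins encoded in mitochondrial DNA, all of them core parts of the respiratory chain complexes and ATP synthase. The ribosomal RNAs come from the mitochondrial genome, whereas each protein of the ribosome is encoded in the nucleus, made in the cytosol and imported. Many of these proteins have a bacterial counterpart and share its number. A higher number does not by itself show that a protein lacks a bacterial counterpart. Structures place 2 proteins with small-subunit names, the products of Mrps18a and Mrps30, in the large subunit, and the product of Mrps36 is now known as a part of a dehydrogenase complex of the citric acid cycle. They were kept under their symbols here.

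Values were FPKM (fragments per length of transcript and per mapped fragments of the library), a scale per length on which genes can be compared. FPKM carry no counts, so the depth behind each value is unknown. The gene-wide Cnot3 level was 39.0 and 40.3 FPKM in the floxed libraries and 41.6 and 39.3 FPKM in the control libraries, which does not check the deletion, since the floxed exons are not named in the labels. Control replicate 1 stood apart in holding Y-linked transcripts (Eif2s3y at 29.3 FPKM) and almost no Xist. Genes are said to have risen or fallen where they passed limma's test on log2(FPKM + 1) at a Benjamini-Hochberg adjusted p under 0.05 over all 11017 genes tested, as 9.49% of them did. The genes of the sort markers were present, Ptprc (B220) at 227.2 to 280.8 FPKM and Spn (CD43) at 177.4 to 226.6 FPKM. Of 14 pro-B cell genes 6 fell, against 3.28% of all genes tested, and 11 had a negative log2 fold change, against 51.0%. Among those that fell, Vpreb1 was at 0.087, Vpreb3 at 0.17 and Igll1 at 0.14 of the control mean. The most abundant genes of the list, Ptprc and Dntt, were at 1.12 and 1.15 times theirs and did not pass. The summed level of the list was 1065 to 1118 FPKM in the floxed and 1290 to 1634 FPKM in the control libraries. The summed level of 8 plasmacytoid dendritic cell genes, led by Bst2 and Irf8, was 8209 to 9714 FPKM against 9961 to 10389 FPKM, and 1 of them fell. For 7 T and NK cell genes, led by Nkg7 and Klrd1, it was 457.8 to 572.3 against 246.0 to 341.2 FPKM. Of these 5 had a positive log2 fold change, against 5400 of all 11017 genes tested. Only Cd8a rose, at a mean of 132.1 against 20.7 FPKM. Klrd1, Gzmb and Ncr1 were at 1.85, 1.88 and 1.97 times the control mean and did not pass. Nkg7, Cd3e and Cd3d were at 1.01, 0.92 and 0.99 of the control mean. For 8 neutrophil and monocyte genes, led by S100a9 and S100a8, the summed level was 153.6 to 221.7 against 140.4 to 194.8 FPKM. S100a9, S100a8 and Lyz2 were at 1.02, 1.00 and 1.08 of the control mean. The 3 that rose, Ctsg, Elane and Itgam, were at 4.31, 2.59 and 1.71 times theirs, against 6.22% of all genes tested that rose. Csf1r and Mpo, at 3.06 and 2.57 times, did not pass. Among 4 erythroid genes, led by Hba-a1 and Hbb-b1, it was 21.1 to 38.2 against 27.7 to 61.7 FPKM, and no listed marker was at 0 in any library. Fewer cells of a type and less RNA per cell cannot be told apart in such bulk samples, and the part of this mixture in the results that follow was not tested.

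Mitochondrial ribosomal protein mRNAs had almost the same summed FPKM in both genotypes. FPKM are relative to the mapped fragments of a library, so a change in the amount of all mRNA per cell would not show. Summed over the 76 genes, the level was 2446 and 2595 FPKM in the floxed replicates 1 and 2 and 2440 and 2569 FPKM in the control replicates 1 and 2. The groups overlapped, with means of 2521 ± 105.5 and 2504 ± 91.5 FPKM (SD, n = 2 each; exact two-sided permutation test over libraries, p = 0.667). The smallest p that this design allows is 0.333. Large-subunit genes summed to 1581 and 1670 against 1603 and 1690 FPKM, and small-subunit genes to 865.4 and 925.4 against 837.0 and 879.5 FPKM, so both subunits overlapped between the genotypes too.

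**Figure D1:**
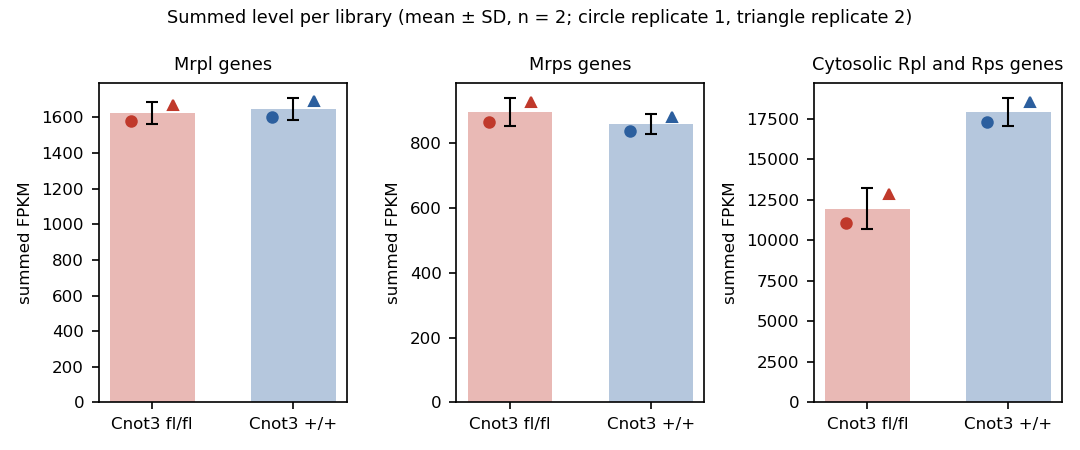
Summed FPKM of the large-subunit genes (left), the small-subunit genes (middle) and the cytosolic ribosomal protein genes (right) in each library, each panel with its own vertical scale. Bars are means of 2 libraries, error bars SD, circles replicate 1 and triangles replicate 2; the libraries of the genotypes overlap in the left and middle panels, and in the right panel both Cnot3 fl/fl libraries lie below both Cnot3 +/+ libraries.

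Cytosolic ribosomal protein genes, whose products build the ribosome outside mitochondria, gave another picture on the same scale. Their 76 measured genes summed to 11048 and 12835 FPKM in the floxed and 17307 and 18512 FPKM in the control libraries, a ratio of 0.667 with no overlap of the groups (exact two-sided permutation test, p = 0.333, the smallest possible). The 74 cytosolic genes tested had a median log2 fold change of -0.55, against 0.01 over the mitochondrial genes. No test of the difference between the lists was made.

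Single levels of mitochondrial ribosomal protein mRNAs spread widely. The mean over the 4 libraries lay between 10 and 60 FPKM for 54 of the 76 genes, above 60 FPKM for 8 and below 10 FPKM for 14. Mrpl52 was the most abundant, at 157.7 and 178.7 FPKM in the floxed and 203.0 and 179.6 FPKM in the control libraries. Its groups did not overlap, but floxed replicate 2 and control replicate 2 were nearly equal. It encodes a protein of the large subunit with no bacterial counterpart, and its log2 fold change of -0.19 (SE 0.11) did not pass the test. Mrpl24 and Mrpl33 followed at a mean of 126.8 and 112.5 FPKM over the 4 libraries. The most abundant small-subunit genes were Mrps16, Mrps21 and Mrps34, at a mean of 90.1, 75.3 and 68.2 FPKM.

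At the other end, Mrpl23 was listed at 0 in 3 libraries and at 0.093 FPKM in floxed replicate 2. It encodes a large-subunit protein with a bacterial counterpart that binds near the exit of the peptide tunnel, and it was the only member below the minimum mean of 1 FPKM, so 75 of 76 were tested. A value of 0 in such files can be a failed estimate. Mrps36 was at 1.06 FPKM on average, just above that minimum, and Mrps33 at 3.69 FPKM. A pseudogene with the gene's own name is annotated in GENCODE for Mrpl23, Mrpl48 and Mrps36, 3 of the 76 genes, so reads of these genes can be split between copies.

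Between the genotypes, 1 mitochondrial ribosomal protein gene rose (Mrps16), 3 fell (Mrpl33, Mrpl49 and Mrps12) and 71 did not pass the test. Over all genes tested 9.49% passed, 6.22% higher and 3.28% lower, and over the 75 members 4 passed. The members' median log2 fold change was 0.01, with quartiles of -0.12 and 0.13, against a median of -0.01 and quartiles of -0.22 and 0.22 over all genes tested. Only Mrpl33 and Mrps16, 2 of the 75, changed by more than 0.5 on the log2 scale in either direction, compared with 15.4% of all genes tested. Both floxed libraries lay above both control libraries in 22 members and below them in 18, against 32.7% and 31.7% of all genes tested, and the groups overlapped in 35.

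**Figure D2:**
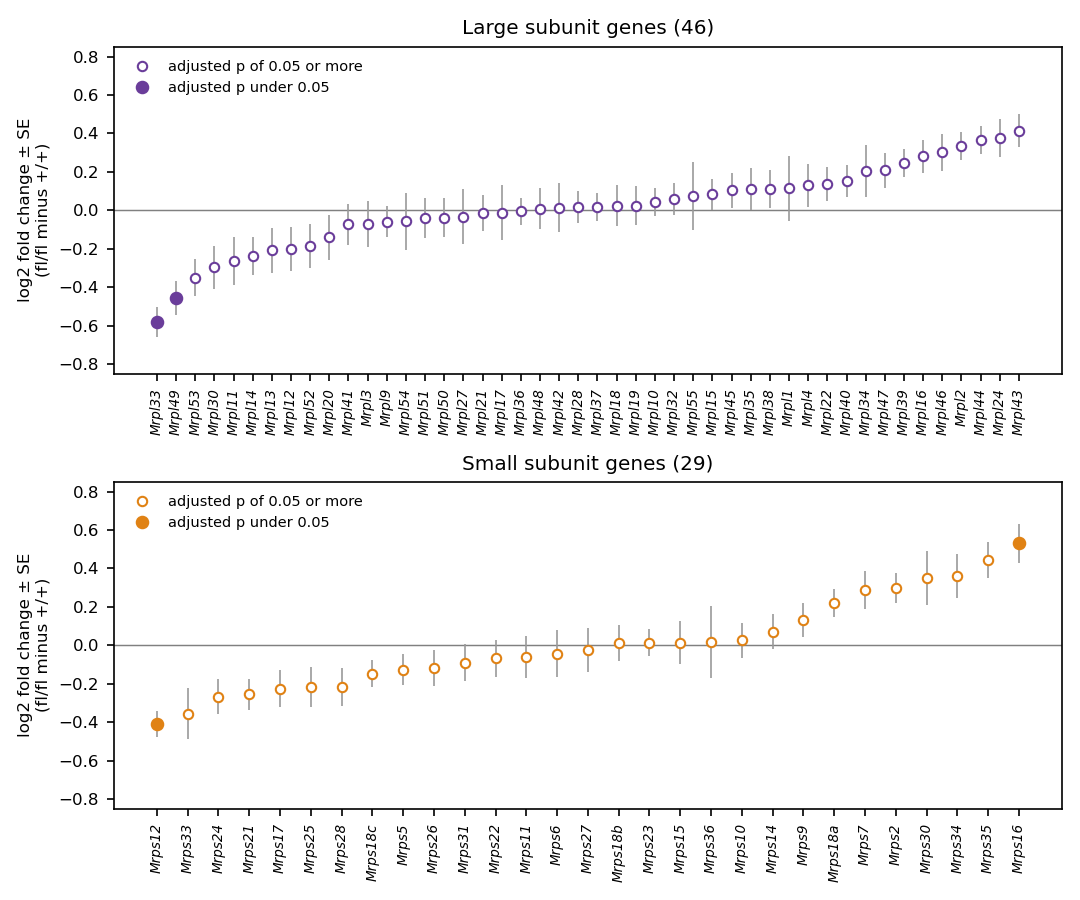
Log2 fold change with its SE (vertical axis, Cnot3 fl/fl minus Cnot3 +/+, on the log2(FPKM + 1) scale) of each gene tested, ranked within the large subunit (top) and the small subunit (bottom). Filled points are the 4 genes with an adjusted p under 0.05, and the ranked values run on both sides of 0 in each subunit, from -0.58 to 0.53.

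None of the 4 calls was kept when any single library was left out, with which 2 to 18 of all genes passed as higher and 0 to 13 as lower. The smallest adjusted p among the members (limma) was then 0.200 without floxed replicate 1, 0.214 without floxed replicate 2, 0.093 without control replicate 1 and 0.106 without control replicate 2. All 4 kept their sign under every alternative, and none was significant in the authors' deposited table, in which 0 of the 76 genes were marked and the smallest q-value among them, that of Mrpl33, was 0.103. That table marked 3.44% of all its genes.

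Promoter stretches of the 4 called genes are shown because they went in opposite directions. Each runs from 80 bases before to 10 bases after a start annotated by RefSeq (GRCm38.p6), 5′ to 3′ on the gene's strand, with matches to the motifs described next in capitals. Mrps16 has 2 annotated starts, and Mrpl49 held no match in this stretch.
Mrpl33, chr5:31613871-31613960, plus strand: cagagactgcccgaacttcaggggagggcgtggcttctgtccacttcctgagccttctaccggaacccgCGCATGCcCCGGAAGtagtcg
Mrps12, chr7:28741812-28741901, minus strand: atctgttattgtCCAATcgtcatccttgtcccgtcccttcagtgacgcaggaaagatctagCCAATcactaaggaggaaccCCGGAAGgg
Mrpl49, chr19:6057746-6057835, minus strand: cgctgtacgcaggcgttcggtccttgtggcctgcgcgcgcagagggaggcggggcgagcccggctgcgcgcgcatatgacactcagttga
Mrps16, chr14:20393481-20393570, minus strand: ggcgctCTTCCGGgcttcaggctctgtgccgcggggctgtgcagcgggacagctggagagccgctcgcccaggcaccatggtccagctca
Mrps16, chr14:20393625-20393714, minus strand: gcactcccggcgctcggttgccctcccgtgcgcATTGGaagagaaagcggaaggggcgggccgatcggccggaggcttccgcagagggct

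The motifs were searched on both strands in windows from 250 bases before to 50 bases after each annotated start, and no motif holds the letters of another. RefSeq windows were found for 67 of the 76 genes, 73 windows in all. The ETS core CCGGAAG, read by factors such as GABP that are known to act on nuclear genes of mitochondrial proteins, was in 32.9% of member windows, 18.8% of windows of genes tested and 8.86% of all windows. It stood at the start of both Mrpl33 and Mrps12, which fell, and upstream of one start of Mrps16, which rose. Over all members tested it was in 15 of 32 windows of genes with a negative log2 fold change (46.9%) and in 9 of 40 windows of genes with a positive one (22.5%), a split that was not tested. The 32 windows belong to 32 genes and the 40 windows to 34 genes. Of the motifs searched, ETS had the widest split, and the same split was not made over all genes tested. The NRF1 core GCATGCG was in 11.0% of member windows, 6.74% of those of genes tested and 3.58% of all. The YY1 core GATGGCG was in 11.0%, 6.62% and 3.49%, the E-box CACGTG in 9.59%, 10.3% and 7.15%, the CCAAT box in 41.1%, 38.0% and 37.4%, and the TATA box TATAAA in 6.85%, 6.75% and 13.6%. For these other motifs the windows of members with a negative and a positive log2 fold change differed little. The NRF1 core was in 9.38% and 12.5% of them, the YY1 core in 12.5% and 10.0%, and the E-box in 9.38% and 10.0%. The CCAAT box was in 40.6% and 42.5%, and the TATA box in 6.25% and 7.50%. A match is a description of the letters and not a bound site.

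Mrpl33 had the largest fall. It encodes one of the smallest proteins of the large subunit, a counterpart of a bacterial protein, and the files place it on chromosome 5 from 31916323 to 31925017 (mm9). It was at 89.1 and 90.5 FPKM in the floxed replicates 1 and 2 and at 130.6 and 139.6 FPKM in the control replicates 1 and 2. Both floxed libraries were low and close to each other, and the groups did not overlap. The mean was 89.8 ± 0.974 FPKM in floxed and 135.1 ± 6.36 FPKM in control libraries (SD, n = 2 each), a fall (log2 fold change -0.58, limma adjusted p = 0.036).

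Mrpl49 encodes a large-subunit protein without a bacterial counterpart and lies on chromosome 19 from 6046575 to 6057751 (mm9), where the files' locus overlaps that of Syvn1. It was at 18.9 and 18.5 FPKM in the floxed and at 24.5 and 27.5 FPKM in the control libraries. The groups did not overlap, and the fall was 0.46 on the log2 scale (SE 0.09, limma adjusted p = 0.049), close to the threshold.

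Mrps12, whose product sits at the decoding centre of the small subunit, lies on chromosome 7 from 29524659 to 29526800 (mm9). Its values were 38.1 and 38.4 FPKM in the floxed and 51.7 and 50.6 FPKM in the control libraries. The replicates of each genotype were nearly identical, and the mean fell to 0.748 of that in control libraries (log2 fold change -0.41, limma adjusted p = 0.042).

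Mrps16 encodes a small-subunit protein with a bacterial counterpart, on chromosome 14 from 21210452 to 21212777 (mm9). It was at 99.5 and 113.9 FPKM in the floxed and at 70.9 and 76.0 FPKM in the control libraries. Both floxed libraries were high, and the mean of 106.7 ± 10.1 FPKM was 1.45 times the control mean of 73.5 ± 3.62 FPKM (SD, n = 2 each), a rise (log2 fold change 0.53, limma adjusted p = 0.046).

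**Figure D3:**
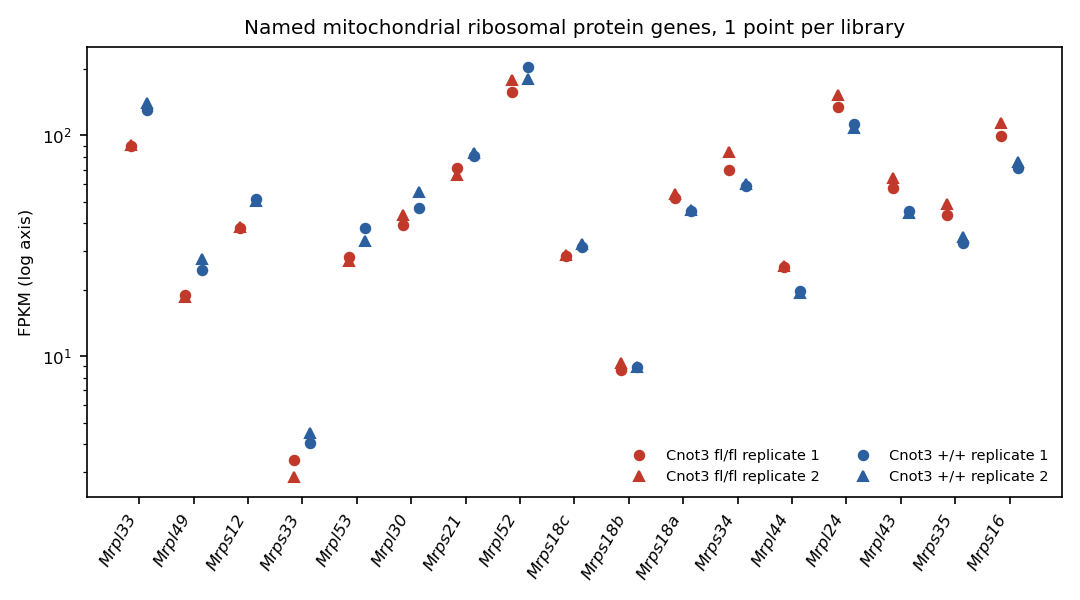
FPKM (vertical log axis) of 17 named genes in each library, ordered from the most negative to the most positive log2 fold change. Red is Cnot3 fl/fl and blue Cnot3 +/+, circles replicate 1 and triangles replicate 2; Mrpl33 at the left has both red points below the blue ones, and Mrps16 at the right has both above.

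Next to the threshold, 4 genes with higher values in floxed libraries had limma adjusted p-values from 0.051 to 0.055. Mrpl44, which carries a fold related to that of ribonuclease III, was at 25.3 and 25.7 against 19.8 and 19.3 FPKM. Mrpl43 was at 57.5 and 63.8 against 45.6 and 44.8 FPKM, and Mrps35 at 43.6 and 48.8 against 32.6 and 34.7 FPKM. In each of these both floxed libraries lay above both control libraries, as they did in 32.7% of all genes tested. The log2 fold changes were 0.37, 0.42 and 0.44, and that of Mrpl2, which encodes a protein of the catalytic core, was 0.33. With quantile normalization or a minimum mean of 5 FPKM, 4 members passed as higher instead of 1. Over all genes tested, 762 of 11017 and 645 of 8539 then passed as higher. Mrpl43 and Mrps35 passed under both alternatives, Mrpl44 under the second, and Mrpl24 under the first (limma adjusted p = 0.043).

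The other genes named by the rule did not pass in the fit reported. Mrpl24, which encodes a protein near the tunnel exit, was at 134.1 and 152.9 against 112.1 and 108.1 FPKM (log2 fold change 0.38), and its locus overlaps that of Rrnad1 in the files. Mrps34 was at 69.5 and 84.4 against 58.9 and 60.1 FPKM, with the larger gap between the floxed libraries. On the lower side, Mrps33 was at 3.39 and 2.85 against 4.05 and 4.48 FPKM. Mrpl53, a protein at the base of the stalk that recruits translation factors, was at 28.2 and 27.1 against 38.2 and 33.2 FPKM, and its locus overlaps that of Ccdc142. Mrpl30 was at 39.2 and 43.7 against 47.1 and 55.4 FPKM, and the abundant Mrps21 at 71.4 and 65.9 against 80.8 and 83.2 FPKM. The groups did not overlap in any of these 6. Over all genes tested, both floxed libraries lay above both control libraries in 32.7% and below them in 31.7%. Mrps21 was named for its abundance and the others at least partly for their fold change, which makes such a separation more likely. The log2 fold changes of the last 4 lay between -0.36 and -0.25.

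Mrps18a, Mrps18b and Mrps18c are paralogues that descend from a single bacterial gene, and they differed in level more than in response. Mrps18a was at 52.2 and 54.5 FPKM in the floxed and 45.3 and 46.1 FPKM in the control libraries (log2 fold change 0.22, limma adjusted p = 0.12). Mrps18c was at 28.4 and 28.7 against 31.3 and 32.1 FPKM, with a log2 fold change of -0.15. Mrps18b was the lowest, at 8.69 and 9.37 against 8.91 and 8.98 FPKM, and its groups overlapped. The order Mrps18a, Mrps18c, Mrps18b held in all 4 libraries, and neither direction passed the test in any of them.

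Grouping by subunit or by the number in the symbol, which need not give the origin, left medians near 0. The large subunit had 46 genes tested, of which 2 fell and 0 rose, and a median log2 fold change of 0.02. The small subunit had 29, of which Mrps16 rose and Mrps12 fell, and a median of -0.02. Over all genes tested 6.22% rose and 3.28% fell. The 43 tested genes that carry a bacterial number (up to 36 in the large and 21 in the small subunit) had a median of 0.01, and so did the 32 with later numbers. The difference between the subunits was not tested.

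Coding length ran along the ranked fold changes. Coding lengths from GENCODE M21 (GRCm38, the longest coding sequence per symbol) were found for all 75 members tested, and the 25 shortest ran from 261 to 480 nt and the 25 longest from 762 to 1326 nt. The log2 fold change was negative in 18 of the 25 shortest, 11 of the 25 in between and 6 of the 25 longest, with medians of -0.06, 0.01 and 0.08. The count in the longest set was 10 without control replicate 1, 9 without floxed replicate 1, 9 with quantile normalization and 4 without control replicate 2, and the count in the shortest set stayed between 15 and 19 with 1 library left out. Across the 75 genes Pearson's r between the log2 fold change and log2 coding length was 0.42 and Spearman's rho 0.44, given as a description, since all genes share the same 4 libraries. Single libraries left out gave an r from 0.35 to 0.47. The shortest set includes the falling genes Mrpl33 and Mrps12, but also Mrps16, which rose.

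**Figure D4:**
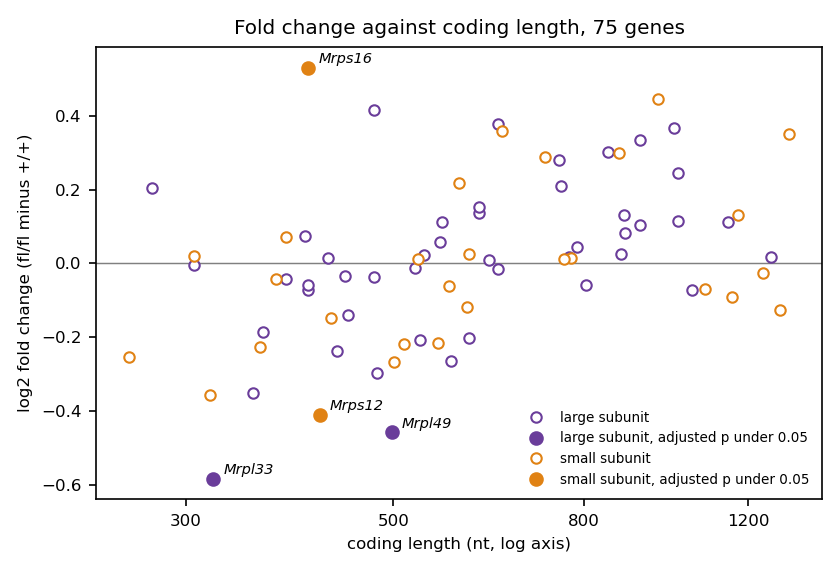
Log2 fold change (vertical axis, Cnot3 fl/fl minus Cnot3 +/+) against coding length in nt (horizontal log axis) of the 75 genes tested, purple for the large and orange for the small subunit, with the 4 called genes filled and named. Points under 480 nt lie mostly below 0 and points over 762 nt mostly above, with Mrps16 as a short gene at the top.

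Among all genes tested, negative values were likewise more frequent in the shortest range, and in the longest range they were near an even split. Of 661 genes within the range of the 25 shortest members, 69.0% had a negative log2 fold change, against 72.0% of those members, and of 2808 genes within the range of the longest, 48.3%, against 24.0%. Over the 10028 genes tested with a coding length, r was 0.09, and it ranged from 0.044 without control replicate 2, and 0.047 without floxed replicate 1, to 0.13 without control replicate 1 and 0.14 without floxed replicate 2. With the length of the whole transcript in place of the coding part, r over the members was 0.16. The part of length in these values was not tested.

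Many of these genes start next to another gene on the opposite strand. In GENCODE M21, 17 of the 76 (22.4%) have a protein-coding neighbour head to head, with starts at most 1000 bp apart, compared with 11.3% of the 10020 tested genes found there. Mrps12 lies 172 bp from Sars2, the mitochondrial seryl-tRNA synthetase gene, and Mrpl49 lies 59 bp from Fau, a cytosolic ribosomal protein gene. While Mrps12 fell, Sars2 was at 15.8 and 15.3 FPKM in the floxed and 11.4 and 12.2 FPKM in the control libraries, on the higher side without overlap (log2 fold change 0.37, limma adjusted p = 0.063). Fau was at 24.9 and 12.4 against 10.5 and 14.3 FPKM, so its groups overlapped. Mrpl2 lies 207 bp from the kinesin light chain gene Klc4, which rose, with means of 15.2 FPKM in floxed and 10.5 FPKM in control libraries (limma adjusted p = 0.042, log2 fold change 0.50). In 13 of 16 pairs with both genes tested the log2 fold changes had opposite signs, compared with 46.6% of 461 such pairs among all genes tested. This count was 8 of 16 without control replicate 2 and 10 of 16 without control replicate 1 or floxed replicate 1, and most of the differences are small.

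Other genes of mitochondrial translation were taken from lists with 81 measured genes, of which 6 rose, 0 fell and 75 did not pass (limma), against 6.22% and 3.28% of all genes tested. At an unadjusted p under 0.05, 20 were higher and 5 lower, against 18.5% and 15.3% of all genes tested. All 6 calls were lost when any single library was left out. The list's median log2 fold change was 0.06.

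Among 7 further subunits of the mitochondrial ribosome without an Mrp symbol, 2 rose and 5 did not pass. Of all genes tested 6.22% rose and 3.28% fell. Dap3, a GTP-binding protein of the small subunit, was at 17.1 and 16.4 FPKM in the floxed and 10.8 and 11.2 FPKM in the control libraries (log2 fold change 0.56, limma adjusted p = 0.040). Gadd45gip1, a large-subunit protein, was at 36.4 and 41.3 against 23.4 and 25.8 FPKM (log2 fold change 0.64, adjusted p = 0.041). Both genes were higher in both floxed libraries without overlap, as were 32.7% of all genes tested. Aurkaip1 had a log2 fold change of 0.31 that did not pass, and Ptcd3 was the only one of the 7 with a negative value, -0.23.

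Of 25 assembly factors and enzymes that modify the mitochondrial rRNA, 3 rose, against 6.22% of all genes tested, and 22 did not pass. They were Ngrn, which stabilises the large rRNA, at 33.8 and 34.6 against 22.1 and 20.6 FPKM, Mtg1, a GTPase of large-subunit assembly, at 14.3 and 14.9 against 9.99 and 9.41 FPKM, and Ddx28, an RNA helicase, at 11.5 and 11.4 against 7.11 and 7.88 FPKM. The log2 fold changes were 0.66, 0.55 and 0.55, with limma adjusted p-values from 0.033 to 0.043. In each gene both floxed libraries lay above both control libraries, as in 32.7% of all genes tested.

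Among 20 mitochondrial aminoacyl-tRNA synthetase and amidotransferase genes, which charge the tRNAs, Iars2 rose and 19 did not pass. It was at 29.6 and 31.0 against 20.9 and 22.0 FPKM (log2 fold change 0.48, limma adjusted p = 0.041). Fars2 and Pet112 did not pass, at log2 fold changes of 0.51 and 0.42, and neither did Mars2, at -0.52. At an unadjusted p under 0.05 there were 7 higher and 3 lower genes in this list, against 18.5% and 15.3% of all genes tested. With the adjusted p, 6.22% of all genes tested rose and 3.28% fell.

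None of 16 translation factors passed, with Taco1, Mtrf1 and Mtrf1l at log2 fold changes of 0.24, 0.28 and -0.25. None of 13 genes of mitochondrial transcription and RNA processing passed either, with Fastkd5, Ptcd1 and Trmt10c at -0.52, 0.33 and -0.35. At an unadjusted p under 0.05 there was 1 higher gene in the first list, and there were 3 higher and 2 lower genes in the second. Of all genes tested 18.5% were higher and 15.3% lower at that threshold, and 9.49% passed with the adjusted p.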

How the data were processed

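For each library the authors deposited gene-level FPKM, per the file headers. Their comparison of the genotypes holds group FPKM, and its p-value and q-value columns are theirs too, as deposited. The submitters' processing notes name TopHat2 2.0.13 with Bowtie2 2.2.3.0, Cuffnorm and Cufflinks 2.2.1, bcl2fastq 1.8.4 and the build mm9. Sources used here do not give their roles, the annotation, whether strand was used or how libraries were scaled, so genes that overlap may share reads. Library preparation used a stranded mRNA kit and 15 cycles of PCR, per the labels' protocols.

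Groups and replicate numbers came from the sample titles. Values were tested as log2(FPKM + 1) with limma 3.58.1 in R 4.3.3 (eBayes with trend, genotype as the only term, two-sided), for the 11017 genes averaging 1 FPKM or more across libraries. Residual degrees of freedom were 2 and prior ones 2.69. The script was run on simulated data. The labels do not say whether libraries of a genotype came from separate mice. The control libraries differ in Xist and Y-linked transcripts, so they do not share a single source, while for the floxed libraries the spread behind the p-values may be technical. FPKM carry no depth, so neither a count test nor an interval for counting error was possible.

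The members, the gene lists and the motifs were chosen with earlier results of these data known. Named were members that passed, the 6 largest log2 fold changes in each direction, the 3 most abundant genes of each subunit, the Mrps18 paralogues and genes below the filter, from each pathway list calls and up to 3 genes with the smallest p, and from each marker list the 2 most abundant genes. Mrpl2, Mrps36, Ptcd3, Mars2, the pro-B cell genes other than Ptprc and Dntt, Cnot3, Eif2s3y, Xist and the head-to-head neighbours were named after their values were seen. So were Cd8a, Cd3e, Cd3d, Gzmb and Ncr1, and the neutrophil and monocyte genes other than S100a9 and S100a8. Alternatives were 2 other pseudocounts, 2 other filters, 2 scalings, eBayes without trend, a replicate block and leaving out each library.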

Additional observations from a re-analysis of the deposited data

How the results depend on the processing

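Of 203 fold changes of 17 named members recomputed under 12 alternatives, 202 kept their sign. The exception was Mrps18b, which ranged from -0.038 without Cnot3 fl/fl replicate 2 to 0.060 without Cnot3 fl/fl replicate 1. The median over all members stayed between -0.04 and 0.05. Calls depended on the alternative. Members called higher, 1 in the fit reported, numbered 4 with a minimum mean of 5 FPKM and 4 with quantile normalization. They numbered 3 with rescaling to equal median ratios, and 0 with no filter on low values or with eBayes without the trend. Over all genes tested, higher calls numbered 645 of 8539, 762 of 11017 and 737 of 11017 under the first 3 of these. With eBayes without the trend, 242 of all genes were called higher and 69 lower. Members called lower, 3 in the fit reported, numbered 0 with no filter on low values, 0 with eBayes without the trend and 1 with the replicate block. With 1 library left out, 1 genotype held a single library. The median over all members then ran from -0.036 without Cnot3 +/+ replicate 1 to 0.053 without Cnot3 +/+ replicate 2. Pathway genes called higher, 6 in the fit reported, numbered 0 with no filter, 1 with eBayes without the trend, 3 with the replicate block, and 0 to 0 with 1 library left out. With no filter 16296 genes were tested and 5 passed in all, 4 higher and 1 lower. The replicate numbers are not known to pair the samples. Across genes, deviations from the genotype mean correlated at 0.144 between Cnot3 fl/fl replicate 1 and Cnot3 +/+ replicate 1. With 2 libraries per genotype, the deviations of replicate 2 are the same with opposite sign and add no second value. The replicate block left 456 higher and 270 lower calls among all genes, against 685 and 361. The causes of these changes were not tested. With 2 libraries per genotype and no counts, small changes of single members were not detectable.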
